A study of Mus musculus with 5 samples.

Results

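Semaphorins, the plexin receptors they bind and the neuropilin co-receptors form one guidance system, and this account covers its 31 genes among the 32531 listed in each library. The members were chosen by family name, with earlier results of these data known. They are every listed symbol of a class 3 to 7 semaphorin (20 genes), a plexin (9 genes) or a neuropilin (2 genes). Each was followed in ribosome-bound RNA from 2 libraries of dissected cerebral cortex and 3 of dentate gyrus. All libraries came from untreated adult mice with both the Rbp4-Cre driver of line KL100 and a Rosa26 allele encoding EGFP fused to the ribosomal protein Rpl10a behind a lox-stop-lox cassette. In translating ribosome affinity purification (TRAP) the tagged polysomes are pulled down with antibodies to EGFP, which enriches RNA of cells that express Cre. KL100 is widely used for layer 5 pyramidal neurons of the cortex, which the labels do not state. No unpurified input was analysed here, so RNA bound without the tag was not measured. Nothing in the labels ties a replicate to its own animal, and p-values measure the spread between these libraries, which may be technical.

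Semaphorins are secreted or membrane-bound ligands that steer axons, prune spines and limit synapse number. Class 3 semaphorins are secreted, and most of them act through a complex of a neuropilin, which binds the ligand, and a class A plexin, which carries the signal into the cell. Classes 4 to 7 are tethered to the membrane and mostly bind plexins directly. Plexins hold a cytoplasmic GTPase-activating domain that acts on Ras-family proteins, and they change the actin cytoskeleton. In mice, Sema3f with Nrp2 and Plxna3 limits spines on layer 5 pyramidal and dentate granule neurons, Sema3a with Nrp1 and Plxna4 shapes basal dendrites of layer 5 neurons, and Sema5a limits excitatory synapses of granule cells through Plxna2.

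Each library held between 22600963 and 36837908 counts in genes. In single libraries 3 counts, taken as the floor of detection, were worth 0.0814 to 0.133 CPM (counts per 1000000) of the unscaled library total. CPM given elsewhere use library totals scaled by TMM. Such floors cover counting error only. The summed level of 9 granule cell markers was 5252 to 5688 CPM in the dentate gyrus libraries and 393 to 448 CPM in the cortex libraries. For 9 genes listed as layer 5 markers the sums were 622 to 723 CPM and 1527 to 1690 CPM. Among them Rorb, at 343 and 319 CPM in cortex, is not particular to that layer, so these sums are not of layer 5 alone. Of these 9, edgeR called 6 higher in cortex (Fezf2, Etv1, Deptor, Tshz2, Parm1 and Rorb) and did not call Crym and Pcp4. It called Bcl11b higher in dentate gyrus (93.8 CPM in cortex against 332 CPM, log2 change 1.82, adjusted p 3.41e-05), which made up much of the dentate gyrus sum. Within cortex, replicate 1 stood apart with 490 CPM of a set led by Car8, against 8.21 CPM in replicate 2. Within dentate gyrus, replicate 2 stood apart with 215 CPM of Dcn, Dlk1 and Gpr101, against 1.88 and 25.3 CPM in replicates 1 and 3. Fezf2, the selector gene of layer 5 neurons, was also higher there, at 60.2 CPM against 1.82 and 17.5 CPM. Both sets came from earlier results of these data, and calls that were lost without these libraries are given beside each gene.

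Dentate gyrus RNA held far more of the ligand Sema5a, and also more Sema5b, Plxna4, Nrp1 and Nrp2. Cortex RNA held more Sema3a, Sema3c, Sema4a, Sema4g, Sema6a, Plxna1 and Plxnc1. In edgeR's quasi-likelihood test, adjusted by Benjamini-Hochberg over all tested genes, 28 members had enough counts to be tested and 12 had an adjusted p under 0.05, 5 toward dentate gyrus and 7 toward cortex. That is 42.9% of the tested members, beside 21.3% of all 14136 tested genes (10.5% toward dentate gyrus, 10.8% toward cortex). The median log2 change, dentate gyrus minus cortex, was -0.10 over the members and 0.02 over all tested genes. None of the 12 overlapped between tissues. Of all 28 tested members 17 did not overlap, beside 50.1% of all tested genes.

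The calls differed in how far they rested on single libraries. Sema5a, Plxna4, Nrp1, Nrp2, Sema3a and Sema6a passed whichever library was left out. Without cortex replicate 1, 7 members were called, 5 higher in dentate gyrus (with Sema6d and without Sema5b) and 2 higher in cortex (Sema3a and Sema6a), beside 12.5% of all genes (6.51% and 5.98%). Without both libraries that stood apart, 7 were called, 4 and 3, beside 10.6% of all genes (5.17% and 5.42%). Against a threshold of 2-fold change, Sema5a, Plxna4, Sema3a and Sema6a passed, 2 in each direction, beside 5.96% of all genes (2.55% and 3.41%). A fit without 1 cortex library takes the remaining one to vary like the dentate gyrus libraries. Because the tissues are bulk samples, fewer cells of a type and less RNA per cell cannot be told apart in any of these differences.

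**Figure D1:**
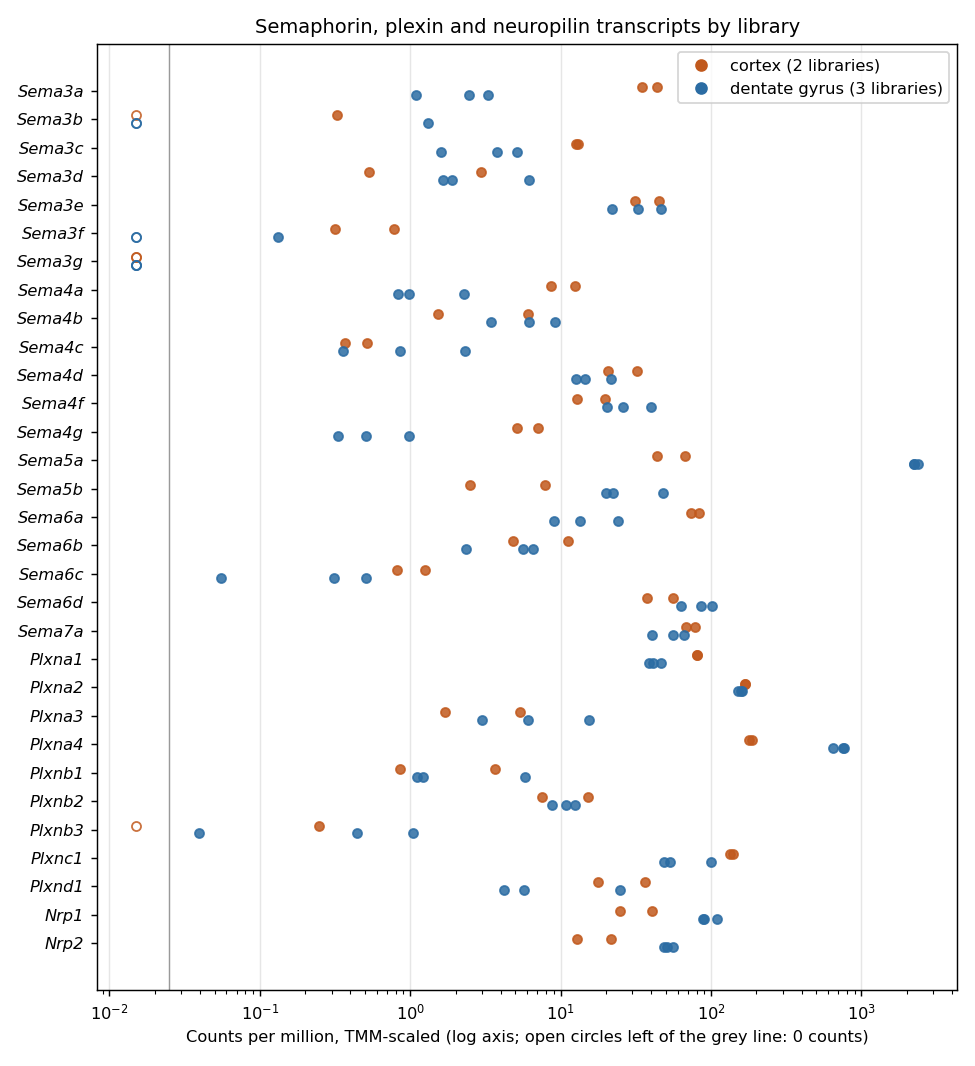
Level of each member in each library, in CPM on a log axis; each point is 1 library, and open circles at the left are libraries with 0 counts. Sema5a sits at 2245 to 2387 CPM in the 3 dentate gyrus libraries and at 43.4 and 66.8 CPM in the cortex libraries.

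Sequences before the RefSeq starts of genes with opposite behaviour are shown so that the members can be read as sequence as well as counts. For 26 of the 31 members RefSeq (GRCm38.p6) gives a transcription start, and the 250 bases before it are printed 5′ to 3′ on the coding strand for both class 5 ligands, which were higher in dentate gyrus, and for Sema3a, which was lower there. Capitals mark CG dinucleotides. The windows are chr15:32244563-32244812 for Sema5a, chr16:35541112-35541361 for Sema5b and chr5:13396534-13396783 for Sema3a, all on the plus strand.
Sema5a: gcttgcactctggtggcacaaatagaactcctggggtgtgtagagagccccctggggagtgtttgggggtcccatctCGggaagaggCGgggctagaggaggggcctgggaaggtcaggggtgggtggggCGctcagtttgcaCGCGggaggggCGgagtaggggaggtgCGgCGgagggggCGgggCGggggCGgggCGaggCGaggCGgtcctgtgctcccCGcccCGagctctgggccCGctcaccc
Sema5b: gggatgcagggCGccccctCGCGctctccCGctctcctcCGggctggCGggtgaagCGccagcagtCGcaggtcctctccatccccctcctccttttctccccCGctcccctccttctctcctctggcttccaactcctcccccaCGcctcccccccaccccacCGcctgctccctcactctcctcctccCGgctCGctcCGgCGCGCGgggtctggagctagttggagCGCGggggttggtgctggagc
Sema3a: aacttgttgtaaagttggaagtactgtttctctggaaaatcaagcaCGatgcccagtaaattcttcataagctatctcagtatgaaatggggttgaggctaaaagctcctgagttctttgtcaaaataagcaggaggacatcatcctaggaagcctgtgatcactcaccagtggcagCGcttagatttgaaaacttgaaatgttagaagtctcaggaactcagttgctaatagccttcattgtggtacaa
The windows of Sema5a and Sema5b held 17 and 19 CG dinucleotides and were each 72.0% G and C. The Sema3a window held 2 and was 40.8% G and C. RefSeq starts need not be the outermost ones: GENCODE begins Sema3a at 13125414 and Nrp1 at 128358604, so that those windows lie inside the annotated gene, and it begins Sema5b at 35541145, so that most of that window does too. The median over all 32851 windows was 6. This contrast did not extend to all called members, since the window of Sema3c, also higher in cortex, held 39 and that of Plxnc1 held 22, while Nrp1 and Nrp2, higher in dentate gyrus, held 11 and 32. The E-box forms CAGATG, read as CATCTG on the opposite strand, and the palindrome CAGCTG were searched on both strands of the same windows; they do not overlap each other. They were found in 25.5% of all windows, in 0 of 4 windows of members higher in dentate gyrus, and in 3 of 8 windows, of 3 genes, of members higher in cortex. Those windows covered 4 of the 5 members higher in dentate gyrus and 5 of the 7 higher in cortex. Plxna4, Plxna1 and Sema6a had no window, and several of the 8 were of Sema4a. Which start the pulled-down RNA used was not measured.

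Among the membrane-bound ligands of class 5, which carry thrombospondin repeats, Sema5a differed most (gene on chromosome 15, 32244810 to 32696341, plus strand, GRCm38). Cortex replicates 1 and 2 held 43.4 and 66.8 CPM of it, against 2245, 2247 and 2387 CPM in replicates 1, 2 and 3 of dentate gyrus. The lowest dentate gyrus library thus lay far above the highest cortex library, while the dentate gyrus libraries were close together. The log2 change was 5.38 (SE 0.20, 95% interval 4.94 to 5.83, adjusted p 7.65e-07), which is 41.7-fold. Sema5a took 61.2% of the counts of all 31 members in dentate gyrus and 5.07% in cortex, shares of reads that also depend on gene length. Summed over the other 30 members, the cortex level was 1030 ± 14.1 CPM (SD, n = 2) and the dentate gyrus level 1454 ± 101 CPM (SD, n = 3). For semaphorins without Sema5a the sum was 368 ± 2.77 CPM in cortex against 286 ± 46.7 CPM in dentate gyrus.

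Per kilobase of exon, its paralog Sema5b had a cortex level of 0.729 ± 0.535 CPM (SD, n = 2) and one of 4.24 ± 2.18 in dentate gyrus (SD, n = 3), against 2.95 ± 0.886 and 123 ± 4.37 for Sema5a. In plain CPM, Sema5b in cortex was at 2.48 and 7.84 CPM, and in dentate gyrus at 47.8, 20 and 22.3 CPM. All dentate gyrus libraries lay above both cortex libraries, and replicate 1 was the highest. The log2 change was 2.55 (SE 0.59, adjusted p 0.0125). That p became 0.0658 without cortex replicate 1 and 0.0545 without both libraries that stood apart.

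Of the 7 secreted class 3 ligands, Sema3a and Sema3c were higher in cortex and none was higher in dentate gyrus. Sema3a, a repellent for many axons that binds Nrp1, was at 43.9 and 34.6 CPM in cortex and at 1.10, 3.29 and 2.47 CPM in dentate gyrus. Every dentate gyrus library lay far below both cortex libraries. The log2 change was -4.11 (SE 0.47, 95% interval -5.17 to -3.06, adjusted p 0.000246), the largest size among members after Sema5a. Sema3c, which can bind both neuropilins, was at 12.7 and 13.1 CPM in cortex and at 1.6, 5.11 and 3.80 CPM in dentate gyrus. The groups were separate, with a log2 change of -1.89 (SE 0.57, adjusted p 0.0425). The Sema3c call was lost without cortex replicate 1 (adjusted p 0.149) or 2 (0.162) and without dentate gyrus replicate 1 (0.0685) or 3 (0.0777), and it was 0.128 without both libraries that stood apart.

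Sema3e, which signals through Plxnd1 without a neuropilin, was at 31.1 and 44.8 CPM in cortex and at 32.9, 22.1 and 46.7 CPM in dentate gyrus. These ranges overlapped, and the 95% interval of the log2 change ran from -0.91 to 0.59 (adjusted p 0.794). Sema3d was at 0.533 to 6.17 CPM over all libraries and overlapped between tissues. Sema3b, Sema3f and Sema3g had too few counts to be tested. Sema3f, the Nrp2 ligand named above, had 11 and 19 counts in the cortex libraries and 0, 3 and 0 counts in the dentate gyrus libraries, so that it was at or under the floor of 3 counts in each of the latter. Sema3b had 8 counts in cortex replicate 2, 48 in dentate gyrus replicate 1 and 0 elsewhere. Sema3g had 0 counts in all 5 libraries, which allows up to 0.0505 CPM in cortex and up to 0.0356 CPM in dentate gyrus with each tissue's libraries taken as one.

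The make-up of class 3 differed between tissues. On a scale of CPM per kilobase of exon, Sema3a made up 31.4 ± 7.07% of the class in cortex (SD, n = 2) and 3.55 ± 2.04% in dentate gyrus (SD, n = 3). The share of Sema3e was 44.8 ± 8.97% in cortex and 75.0 ± 14.4% in dentate gyrus, although its own CPM did not differ beyond the spread. With the longest annotated transcript as length, Sema3a was 44.2% and Sema3e 36.8% of the class in cortex, so their order there depended on the length used. Summed CPM of the class was 92.6 ± 2.25 in cortex and 43.4 ± 9.91 in dentate gyrus.

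**Figure D2:**
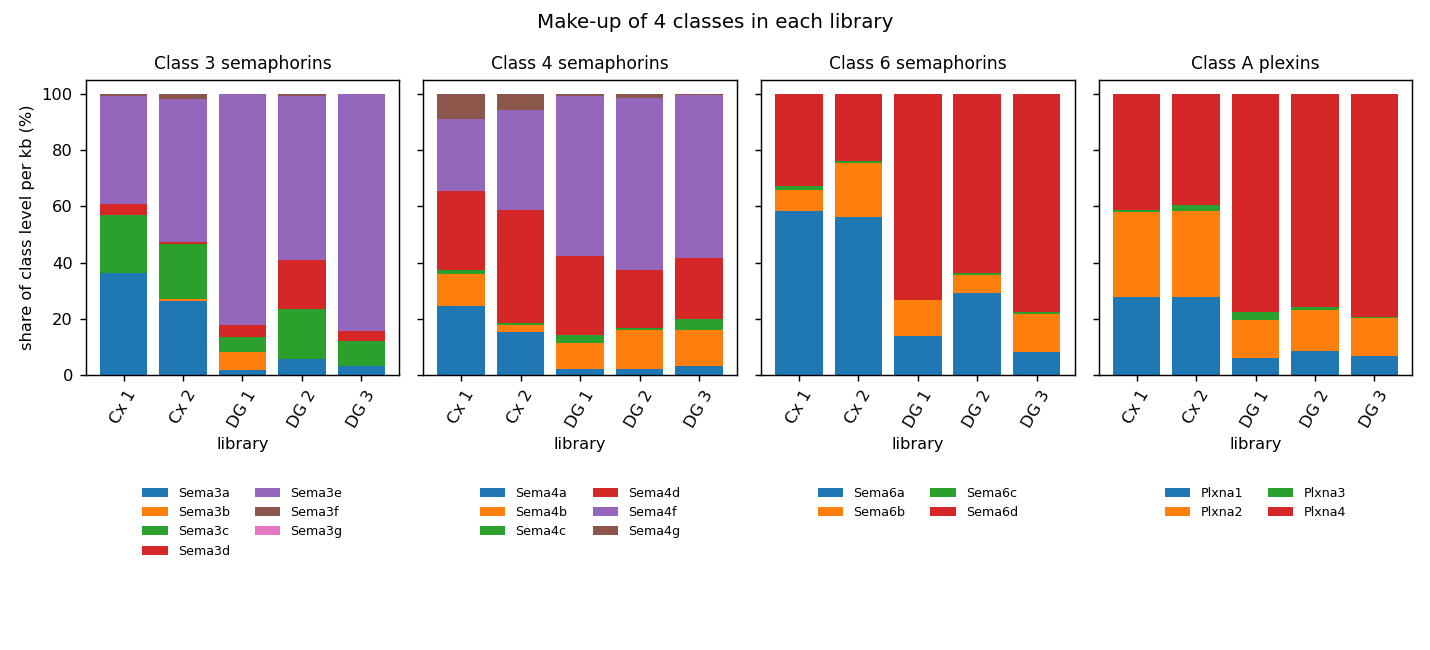
Share of each gene in the summed level per kilobase of its class (percent), for 4 classes in the 2 cortex (Cx) and 3 dentate gyrus (DG) libraries; each stacked bar is 1 library and sums to 100. Plxna4 takes 39.6% to 41.2% of class A plexins in cortex and 75.8% to 79.3% in dentate gyrus.

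Class 4 semaphorins are transmembrane ligands, several of which bind class B plexins. Sema4a and Sema4g were higher in cortex, and the other 4 genes did not pass. Sema4a, also known from immune cells, was at 12.5 and 8.57 CPM in cortex and at 0.828, 0.977 and 2.27 CPM in dentate gyrus. The tissues were separate, with a log2 change of -2.96 (SE 0.67, adjusted p 0.0115), but the call was lost with cortex replicate 1 left out (adjusted p 0.109) or both libraries that stood apart left out (0.184). Sema4g was at 7.04 and 5.13 CPM in cortex and at 0.331, 0.977 and 0.509 CPM in dentate gyrus. Again no library of one tissue reached the other, with a log2 change of -3.33 (SE 0.86, adjusted p 0.0207). Leaving out cortex replicate 1 or 2 moved the Sema4g adjusted p to 0.158 or 0.0701, leaving out dentate gyrus replicate 3 to 0.0512, and leaving out both libraries that stood apart to 0.162.

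Sema4d, a Plxnb1 ligand also made by oligodendrocytes, was at 20.5 and 32.2 CPM in cortex and at 14.6, 12.7 and 21.6 CPM in dentate gyrus. Dentate gyrus replicate 3 reached the cortex range, and the adjusted p was 0.216. Sema4f was at 12.8 and 19.6 CPM in cortex and at 20.3, 26.1 and 39.7 CPM in dentate gyrus. Although these ranges did not overlap, the spread within dentate gyrus was wide and the adjusted p was 0.154. On the scale per kilobase, Sema4f made up 30.6 ± 6.91% of class 4 in cortex and 58.8 ± 2.17% in dentate gyrus. Sema4b was at 1.52 to 9.16 CPM and Sema4c at 0.355 to 2.31 CPM over all libraries, and both overlapped between tissues.

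In class 6, whose transmembrane members bind class A plexins, Sema6a and Sema6d went opposite ways in level. Sema6a, a ligand of Plxna2 and Plxna4, was at 82.5 and 73.2 CPM in cortex and at 13.4, 24.1 and 8.97 CPM in dentate gyrus. The highest dentate gyrus library, replicate 2, remained well below cortex. The log2 change was -2.33 (SE 0.37, 95% interval -3.16 to -1.51, adjusted p 0.0016). Sema6d, a Plxna1 ligand, was at 55.9 and 37.3 CPM in cortex and at 85.5, 63.0 and 101 CPM in dentate gyrus. The tissues did not overlap, and the log2 change was 0.83 (SE 0.27), but the adjusted p of 0.0507 missed the threshold. Sema6d did pass with cortex replicate 1 left out (adjusted p 0.0493), dentate gyrus replicate 2 left out (0.0245) or both left out (0.0252), and by DESeq2 (0.017) and limma voom (0.0332). With cortex replicate 2 left out its adjusted p was 0.328.

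Sema6a took 57.3 ± 1.49% of class 6 per kilobase in cortex and 17.1 ± 10.9% in dentate gyrus. For Sema6d the shares were 28.3 ± 6.36% and 71.6 ± 7.11%. Sema6b (2.35 to 11.2 CPM) overlapped between tissues. Sema6c was at 1.25 and 0.821 CPM in cortex and at 0.0552 to 0.509 CPM in dentate gyrus, with an adjusted p of 0.414.

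Sema7a, the only class 7 semaphorin, is anchored in the membrane by a lipid and binds Plxnc1 and integrins. It was at 68.2 and 77.7 CPM in cortex and at 66.4, 40.3 and 55.6 CPM in dentate gyrus. Dentate gyrus replicate 1 lay just below the lower cortex library, and the log2 change was -0.43 (95% interval -0.97 to 0.11, adjusted p 0.255). Per kilobase, Sema7a was the highest of all members in cortex, at 22.1 ± 2.04 CPM per kilobase, and at 16.4 ± 3.97 in dentate gyrus it came after Sema5a (123 ± 4.37) and Plxna4 (51.1 ± 4.70). With the longest transcript as length, Nrp1 (26.4) also came before it in dentate gyrus.

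Turning to receptors, Plxna4 was the only plexin called higher in dentate gyrus. Plxna4, on the minus strand of chromosome 6 from 32144268 to 32588192, was at 187 and 180 CPM in cortex and at 763, 645 and 755 CPM in dentate gyrus. Each tissue was tight and the gap between them wide, with a log2 change of 1.98 (SE 0.13, 95% interval 1.69 to 2.26, adjusted p 8.52e-06). Plxna1 was at 80.4 and 81.0 CPM in cortex and at 38.5, 46.3 and 40.8 CPM in dentate gyrus. The log2 change was -0.95 (SE 0.20, adjusted p 0.00792). That p became 0.0507 without cortex replicate 1 and 0.0639 without both libraries that stood apart. About 10.7% of annotated Plxna1 exon bases are shared with Gm26811 on the opposite strand, and whether reads were counted by strand is not given in the sources used here.

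Plxna2, the receptor named above for Sema5a, was nearly level across the libraries. It was at 168 and 168 CPM in cortex and at 161, 150 and 157 CPM in dentate gyrus. The cortex libraries were the higher ones by a small margin, and the 95% interval of the log2 change ran from -0.42 to 0.19 (adjusted p 0.634). Plxna3 was low and variable, at 1.71 and 5.37 CPM in cortex and 15.5, 6.09 and 2.98 CPM in dentate gyrus, with overlap.

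Per kilobase, Plxna4 made up 40.4 ± 1.15% of the class A plexins in cortex and 77.6 ± 1.74% in dentate gyrus, a description without a test. The shares of Plxna2 were 30.5 ± 0.0149% and 13.8 ± 0.567%, and those of Plxna1 were 27.7 ± 0.141% and 7.08 ± 1.24%. With the longest transcript as length, Plxna2 had 39.2% and Plxna4 36.5% in cortex, so the leading class A plexin of cortex depended on the length used. In dentate gyrus Plxna4 led under both lengths, with 73.7% under the longest transcript.

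Class B plexins were low, with a summed level of 13.8 ± 7.69 CPM in cortex against 13.9 ± 1.6 CPM in dentate gyrus. Plxnb2 was at 7.47 to 15.3 CPM, Plxnb1 at 0.855 to 5.82 CPM and Plxnb3, a plexin known from oligodendrocytes, at 0 to 1.05 CPM over all libraries. None of the 3 passed, and each overlapped between tissues.

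Plxnc1, the Sema7a receptor, was at 139 and 133 CPM in cortex and at 53.6, 100 and 48.8 CPM in dentate gyrus. Dentate gyrus replicate 2 was about midway between the tissues. The log2 change was -1.01 (SE 0.29, adjusted p 0.0320). This call was lost without cortex replicate 1 (adjusted p 0.129) or 2 (0.0952) and without dentate gyrus replicate 1 (0.0625) or 3 (0.0761), and it was 0.0123 without both libraries that stood apart. Plxnd1, the Sema3e receptor, was at 36.2 and 17.7 CPM in cortex and at 24.7, 4.22 and 5.68 CPM in dentate gyrus. Dentate gyrus replicate 1 lay between the cortex libraries and the adjusted p was 0.25, while without that library the log2 change was -2.46 and the adjusted p 0.00623.

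Both neuropilins were higher in dentate gyrus. Nrp1, which binds Sema3a and VEGF, was at 40.7 and 24.9 CPM in cortex and at 90.4, 88.1 and 110 CPM in dentate gyrus. Nrp2, which binds Sema3f and Sema3c, was at 12.8 and 21.7 CPM in cortex and at 56.1, 50.9 and 48.7 CPM in dentate gyrus. For both genes the dentate gyrus libraries were all above the cortex libraries. The log2 changes were 1.55 for Nrp1 (SE 0.26, adjusted p 0.00208) and 1.59 for Nrp2 (SE 0.29, adjusted p 0.00402), and the Nrp2 adjusted p was 0.0608 without both libraries that stood apart. Per kilobase, Nrp1 took 68.7 ± 15.0% of the pair in cortex and 69.0 ± 3.70% in dentate gyrus.

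**Figure D3:**
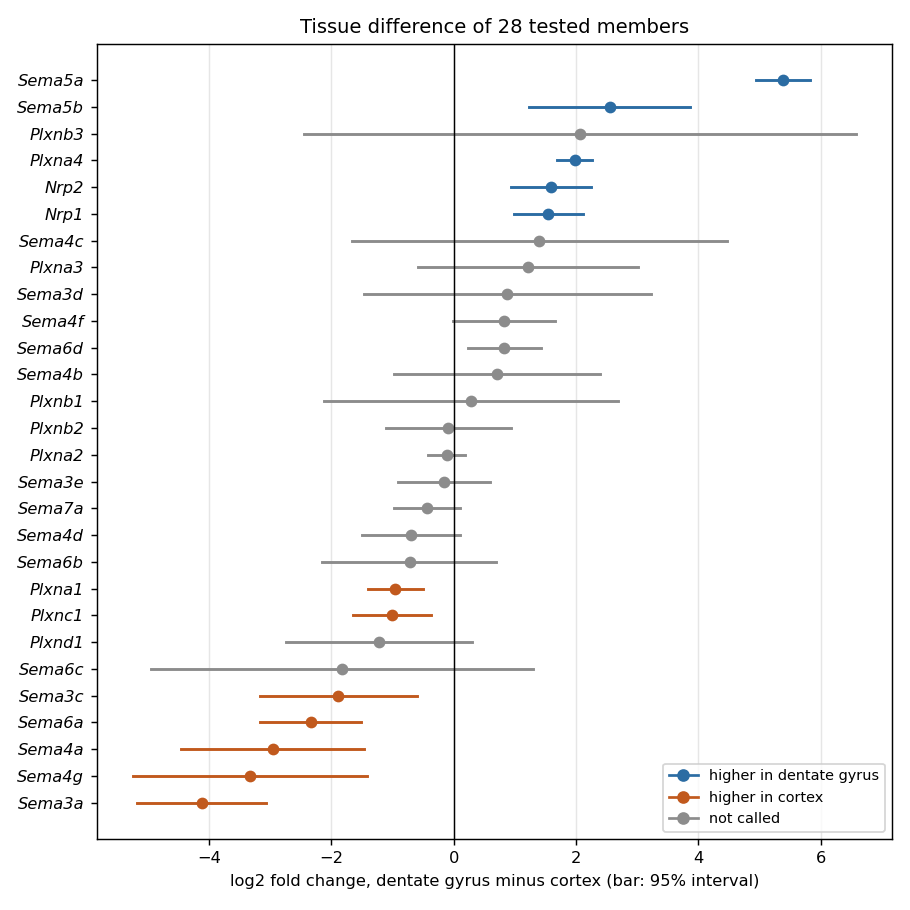
Fitted log2 fold change, dentate gyrus minus cortex, of the 28 tested members with 95% intervals from the quasi-likelihood test; blue genes were higher in dentate gyrus, orange genes were higher in cortex and grey genes did not pass. Sema5a lies at 5.38 and Sema3a at -4.11, and the widest intervals belong to genes of low counts such as Plxnb3.

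The ligands and receptors paired in the text above are set side by side here, with no test of one against the other. Sema3a was 17.3-fold lower in dentate gyrus while Nrp1 was 2.92-fold and Plxna4 3.94-fold higher there. Nrp2 was 3.01-fold higher in dentate gyrus, where its ligand Sema3f was at or under the floor in each library, and Plxna3 was not called. Sema3c was 3.7-fold lower in dentate gyrus, where both neuropilins were higher. Sema5a was 41.7-fold higher and Plxna2 was not called. Sema7a and Plxnc1 both had lower values in dentate gyrus, with log2 changes of -0.43 (not called) and -1.01 (called). In the pair of Sema3e and Plxnd1 (adjusted p 0.794 and 0.25) and that of Sema4d and Plxnb1 (0.216 and 0.895), no gene was called. For Sema6a, 5.04-fold higher in cortex, the receptor Plxna4 was higher in dentate gyrus and Plxna2 was not called. Sema6d was not called, and Plxna1 was higher in cortex. These pairs are background knowledge, and the RNA of cells not expressing Cre, a source of ligand in tissue, was not what TRAP was built to enrich.

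Of the 7 members higher in cortex, 6, all except Sema4a, had their highest dentate gyrus value in replicate 2. Margins over replicates 1 and 3 ranged from small, as for Plxna1 (46.3 CPM against 38.5 and 40.8 CPM), to wide, as for Plxnc1 (100 CPM against 53.6 and 48.8 CPM). Among all 1472 genes higher in cortex with a count in dentate gyrus, replicate 2 was the highest for 43.8%. Of the genes listed as layer 5 markers and higher in cortex, 5 of 6, all except Rorb, had their highest dentate gyrus value in replicate 2. Deptor was at 14.1 CPM in replicate 2 against 2.43 and 2.86 CPM, and Tshz2 at 31.6 CPM against 4 and 4.82 CPM. The part of cells with these markers in the values of the members was not tested.

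Other cells of the tissue express several members, and their markers are given for that reason. Brain endothelial cells are known for Nrp1, Plxnd1 and Sema3g. The 9 endothelial markers summed to 8.70 and 10.2 CPM in cortex and to 18.7, 40.0 and 23.5 CPM in dentate gyrus replicates 1, 2 and 3. The defining marker Cldn5 had 0 counts in both cortex libraries and at most 1 count in a dentate gyrus library, and edgeR called 0 of 8 tested endothelial markers (1 had an unadjusted p under 0.05), limma voom called 0 and DESeq2 1, higher in dentate gyrus. Their median log2 change was 2.36, and the part of these cells in the Nrp1, Nrp2 and Plxnd1 values was not tested. The 9 oligodendrocyte markers, cells that express Sema4d, Sema6a and Plxnb3, summed to 230 to 312 CPM in cortex against 173 to 236 CPM in dentate gyrus. Of 8 tested, 1 was higher in cortex.

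The 7 interneuron markers summed to 884 to 896 CPM in cortex against 184 to 218 CPM in dentate gyrus. Most of the cortex sum was Sst, at 700 and 641 CPM. Of the 7, edgeR called 4 higher in cortex and did not call Slc32a1 and Lhx6. It called 1, Gad1, higher in dentate gyrus (33.8 CPM in cortex against 64.5 CPM, adjusted p 0.0276). The 7 microglial markers summed to 8.50 to 9.48 CPM in cortex against 0.911 to 5.33 CPM in dentate gyrus, with C1qa at 0 counts throughout. The 7 astrocyte markers summed to 1131 to 1136 CPM and 645 to 803 CPM, and 3 of them were higher in cortex, although the median log2 change of the 7 was 0.61. Most of each sum was Slc1a2, at 984 and 1004 CPM in cortex and at 595, 619 and 717 CPM in dentate gyrus. Sums of 7 fibroblast markers were 44.9 to 50.3 CPM in cortex against 11.5 to 128 CPM in dentate gyrus. Dcn alone was at 35.3 and 25.8 CPM in cortex and at 114 CPM in dentate gyrus replicate 2. Of 6 fibroblast markers tested, 1 was called, higher in dentate gyrus. Sums of 5 oligodendrocyte precursor markers were 12.5 to 24.3 and 5.71 to 17.4 CPM, with 1 called, higher in cortex. How far these cells contribute to the cortical level of Sema3a, Sema3c, Sema4a, Sema4g, Sema6a and Plxnc1 was not tested.

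The wider pathway was read from 2 lists, holoreceptor partners with neuropilin-binding growth factors, and cytoplasmic effectors. Of 16 partner genes 13 were tested, of which 5 (38.5%) were called, 2 toward dentate gyrus and 3 toward cortex. Over all tested genes 21.3% were called, 10.5% toward dentate gyrus and 10.8% toward cortex. The median log2 change of the partner genes was -0.69 (0.09 over the 11 genes with at least 1 CPM in 2 libraries and 0.05 by limma voom). L1cam, an adhesion molecule that joins the Nrp1 receptor complex, was at 209 and 177 CPM in cortex and at 44.2, 75.6 and 72.6 CPM in dentate gyrus. Its log2 change was -1.59 (SE 0.23, adjusted p 0.000998). Chl1, the close homolog of L1cam, went the other way, at 211 and 181 CPM in cortex and 277, 365 and 389 CPM in dentate gyrus. The Chl1 log2 change was 0.81 (SE 0.17, adjusted p 0.00745). That p became 0.0768 without cortex replicate 2 and 0.0561 without both libraries that stood apart.

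The other 3 partner calls rested on single libraries. Met, a receptor tyrosine kinase that can associate with class B plexins, was at 17.6 ± 8.59 CPM in cortex against 1.22 ± 1.06 CPM in dentate gyrus (adjusted p 0.0382). Leaving out cortex replicate 1 or 2 moved the Met adjusted p to 0.211 or 0.0649, leaving out dentate gyrus replicate 3 to 0.0568, and DESeq2 gave 0.165. Vegfa, a growth factor that binds Nrp1, was at 22.1 ± 6.12 and 6.25 ± 3.79 CPM (adjusted p 0.0437). Without cortex replicates 1 or 2 its adjusted p was 0.0840 or 0.230, and without dentate gyrus replicate 3 it was 0.0816. Itga1, an integrin subunit that can bind Sema7a, had 5 and 1 counts in cortex replicates 1 and 2, the latter under the floor of 3 counts. Its levels were 0.0918 ± 0.0718 and 3.41 ± 1.88 CPM (adjusted p 0.0202). For Itga1 these became 0.0603 or 0.116 when cortex replicate 1 or 2 was left out, and 0.0504 when dentate gyrus replicate 2 was.

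Of 37 effector genes 36 were tested, with 4 higher in dentate gyrus and 10 in cortex (38.9%), beside 21.3% of all tested genes. The median log2 change of the effector genes was -0.29. Pak1, the kinase activated by Rac, was at 2731 and 2480 CPM in cortex and at 850, 795 and 800 CPM in dentate gyrus. The separation was wide, with a log2 change of -1.68 (SE 0.09, adjusted p 2.67e-06). Farp1, a guanine nucleotide exchange factor tied to Plxna4 signalling in dendrites, was at 36.7 ± 0.656 CPM in cortex against 5.71 ± 1.92 CPM in dentate gyrus (log2 -2.69, SE 0.37, adjusted p 0.000760). Dpysl2, which encodes the collapsin response mediator CRMP2 that acts downstream of Sema3a, was at 372 ± 0.108 and 194 ± 21.7 CPM (log2 -0.94, adjusted p 0.000909). Its relative Dpysl3 was at 50.9 ± 3.33 and 12.1 ± 6.10 CPM (log2 -2.08, adjusted p 0.00768). Cfl1, the actin-severing protein cofilin, was at 476 ± 36.5 and 317 ± 7.08 CPM (adjusted p 0.00512). Its adjusted p became 0.0535 when cortex replicate 1 was left out.

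The effector genes higher in dentate gyrus were small GTPases and a regulator of them, but this did not hold for all small GTPases of the list. Rnd1 was higher in cortex, at 5.9 ± 1.81 CPM against 0.363 ± 0.064 CPM in dentate gyrus (log2 -4.01, SE 0.86, adjusted p 0.00847). Rhoa, Rap1b, Rras and Mras were not called, and the exchange factor Farp1 was higher in cortex. Rras2, a Ras-family GTPase of the kind plexins act on, was at 10.9 ± 2.16 CPM in cortex against 45.3 ± 4.22 CPM in dentate gyrus (log2 2.06, SE 0.29, adjusted p 0.000755). Rap1a was at 55 ± 11.1 and 122 ± 10.9 CPM (log2 1.15, adjusted p 0.00282), and Rac1 at 1128 ± 155 and 1887 ± 84.7 CPM (log2 0.74, adjusted p 0.000904). Rasa1, a GTPase-activating protein for Ras, was at 52.3 ± 8.74 and 109 ± 7.29 CPM (log2 1.05, adjusted p 0.00383). Without both libraries that stood apart, the median log2 change was -0.69 over the tested partner genes and -0.26 over the tested effector genes. Over all tested genes it was 0.06.

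**Figure D4:**
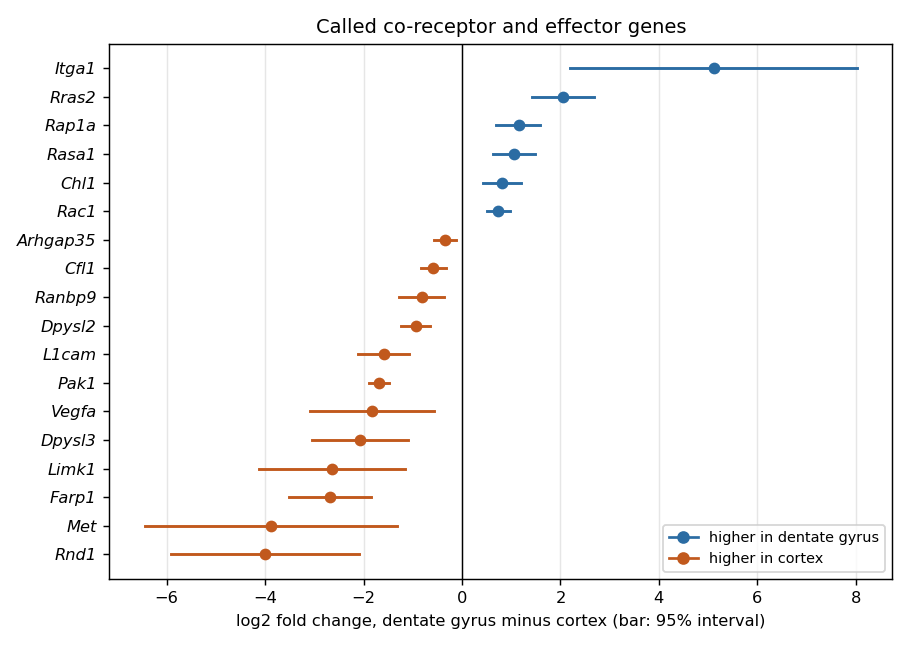
Fitted log2 fold change, dentate gyrus minus cortex, with 95% intervals, of 18 of the 19 partner and effector genes called by edgeR; blue genes lay toward dentate gyrus and orange genes toward cortex. Fes, named here after its values were seen, is left out because it had 0 counts in all dentate gyrus libraries; Rras2 lies at 2.06 and Pak1 at -1.68.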

How the data were processed

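The authors deposited 1 table of raw read counts per gene symbol for each library. STAR 2.0.0e and HTSeq, with the mm10 build, are the tools named per the submitters' processing notes. For the annotation, the strand setting and overlapping genes, no choice is stated in the sources used here. Reads of several genomic positions, without a feature or ambiguous stood in classes of their own and entered neither library sizes nor tests. The first were 29.95% and 31.76% in cortex and 25.03% to 25.44% in dentate gyrus. Reads without a feature were 10.59% and 11.0% in cortex and 13.26% to 14.83% in dentate gyrus, and ambiguous reads 1.81% to 1.87% over all libraries. What part these tissue differences have in the calls was not tested.

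Groups and replicate numbers came from the sample titles. The members, lists and alternatives were chosen with earlier results of these data known. TMM factors (trimmed mean of M values) scaled the libraries, genes were filtered with filterByExpr, and tissues were compared with edgeR 4.0.16 in R 4.3.3, with an adjusted p under 0.05 called. Adjusted p-values are from edgeR except where DESeq2 or limma is named. Standard errors are the log2 change divided by the root of F. CPM use TMM-scaled totals. Exon lengths and positions came from GENCODE M21 (GRCm38, the mm10 build), promoters from RefSeq. DESeq2 1.42.0 and limma 3.58.1 were alternatives. The procedure was also run on simulated counts in which no library stood apart, so that run does not test the calls given here.

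All members are named. Values per library are given for called members and for uncalled members with a mean of at least 20 CPM in a tissue, and up to 5 called genes per direction are named from each pathway list. Figures used matplotlib 3.10.9. Some further values per library were added after they were seen, for Plxna3, Sema3b, Sema3f and Sema6c. The same holds for naming Rnd1 and the uncalled small GTPases, for the values of Rorb, Sst and Gad1, and for the counts of Itga1.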

Additional observations from a re-analysis of the deposited data

How the results depend on the processing

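All 12 called members kept their direction under all 15 alternative settings of the test, and the members called were 12 to 14 under the other scalings and filters, robust dispersion, DESeq2 and limma voom, beside 20% to 27.2% of all genes. For a change above 2-fold the calls were 842 of all genes (360 higher in dentate gyrus, 482 higher in cortex), 4 members (2 and 2), 0 partner genes (0 and 0; 4 had an unadjusted p under 0.05) and 4 effector genes (1 and 3). Leaving out 1 library gave 1886 to 2775 calls over all genes (908 to 1276 higher in dentate gyrus, 913 to 1499 in cortex), 7 to 13 members (2 to 7 higher in cortex, beside 12.2% to 19.9% of all genes called), 1 to 5 partner genes (0 to 2 and 1 to 3) and 9 to 14 effector genes (5 to 10 higher in cortex). The lowest counts came without a cortex library, which leaves 1 cortex library. With both cortex replicate 1 and dentate gyrus replicate 2 left out, the calls were 1578 of all genes (771 and 807), 7 members (3 higher in cortex), 1 partner gene (0 and 1) and 9 effector genes (5 higher in cortex). Partner genes higher in cortex were 5 without a filter, and those higher in dentate gyrus were 1 by limma voom. With the replicate number as a block, 4 members and 6 effector genes were higher in cortex, with Sema3c, Sema4g and Plxnc1 at an adjusted p of 0.0733, 0.0974 and 0.053. Whether equal replicate numbers mark the same animal is not stated in the labels. The differences between replicates 1 and 2 correlated at -0.0115 between tissues across genes, a single comparison that cannot settle this. The block gave 2237 calls (15.8%) where there had been 3009. With the longest transcript as length, shares within a class became 36.5% and 73.7% for Plxna4 in cortex and dentate gyrus, 39.2% and 18.6% for Plxna2, 44.2% and 5.96% for Sema3a, 54.3% for Sema6a in cortex and 77.2% for Nrp1 in dentate gyrus. The cause of the lost calls was not tested. Plxnb3, Sema4c and Sema6c, with 0 to 59 counts in each library, had wide intervals (log2 -2.44 to 6.58, -1.66 to 4.46 and -4.95 to 1.29).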
